A study of Mus musculus with 20 samples.

Results

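The genes described here, 10 in all, carry fatty acids into the muscle fibre and through mitochondrial β-oxidation, and were measured in sedentary and trained mouse muscle. They are Cd36, Fabp3, Lpl, Cpt1b, Cpt2, Acadm, Acadl, Acadvl, Hadha and Hadhb, chosen by name from a count table of 21844 genes. All 10 were found in the table and all 10 passed the filter on low counts (a CPM, the count scaled to a common library total, of 1 or more in 5 or more libraries), which left 14359 genes to test. The study sequenced RNA of mouse hindlimb muscle in 20 libraries, to compare muscle with and without the clock transcription factor BMAL1, sedentary or trained on a treadmill. Every mouse carried the genotype Cre+:iMSBmal1 fl/fl, the controls included, so the controls had the floxed Bmal1 gene and the Cre recombinase too. The treatment labels read Vehicle or iMSBmal1KO, each with No Exercise or with Exercise Training, which gave 4 groups of 5 libraries, called vehicle sedentary, knockout sedentary, vehicle trained and knockout trained below. The series design gives 6 weeks of daily treadmill training and collection 47 hours after the last bout, whereas the sample labels give 48 hours. The sample source and the design name the gastrocnemius and the tissue field names the tibialis anterior. The age and sex of the mice, the promoter that drives Cre and the agent that induces it are not given in the sources used here.

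Muscle fibres burn fatty acids that arrive in lipoproteins or bound to albumin. Lipoprotein lipase (Lpl) releases them from triglyceride in the capillary, CD36 helps them across the membrane and the heart-type binding protein FABP3 carries them through the cytosol. Carnitine palmitoyltransferase 1 of muscle (Cpt1b) on the outer mitochondrial membrane and carnitine palmitoyltransferase 2 (Cpt2) on the inner one move the activated chains into the matrix, and the CPT1 step is the one that malonyl-CoA inhibits. The very-long-, long- and medium-chain acyl-CoA dehydrogenases (Acadvl, Acadl, Acadm) open each round of β-oxidation, and the trifunctional protein, built from α subunits (Hadha) and β subunits (Hadhb), carries out its later steps on long chains. Many of these genes are known targets of the PPAR nuclear receptors and their coactivators, and endurance training is known for raising the capacity for fat oxidation in muscle.

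The promoter windows of 4 members are shown because these 4 were the members called different between trained samples labelled knockout and trained vehicle samples. Windows run from 250 bases before to 50 bases after the RefSeq start, on build GRCm38.p6, and were available for 8 of the 10 members. Hadha and Hadhb lie head to head on chromosome 5, their RefSeq starts separated by 272 bases, so that their windows overlap by 228 bases. The windows of Hadhb (chr5:30155003-30155302, plus strand) and Hadha (chr5:30154931-30155230, minus strand) are printed with those shared bases in capitals, each read on its own strand. In the window of Acadm (chr3:153944594-153944893, minus strand) capitals mark a match to the nuclear receptor hexamer AGGTCA, read on the opposite strand. No searched motif was found in the window of Fabp3 (chr4:130308488-130308787, plus strand).
Hadhb: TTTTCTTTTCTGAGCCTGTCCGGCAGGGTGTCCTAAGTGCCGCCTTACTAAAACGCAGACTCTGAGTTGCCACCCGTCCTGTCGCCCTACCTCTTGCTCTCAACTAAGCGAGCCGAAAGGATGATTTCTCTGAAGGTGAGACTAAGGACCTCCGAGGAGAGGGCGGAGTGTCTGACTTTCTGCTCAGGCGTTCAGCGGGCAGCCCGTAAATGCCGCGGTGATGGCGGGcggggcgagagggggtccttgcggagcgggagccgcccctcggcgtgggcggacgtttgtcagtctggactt
Hadha: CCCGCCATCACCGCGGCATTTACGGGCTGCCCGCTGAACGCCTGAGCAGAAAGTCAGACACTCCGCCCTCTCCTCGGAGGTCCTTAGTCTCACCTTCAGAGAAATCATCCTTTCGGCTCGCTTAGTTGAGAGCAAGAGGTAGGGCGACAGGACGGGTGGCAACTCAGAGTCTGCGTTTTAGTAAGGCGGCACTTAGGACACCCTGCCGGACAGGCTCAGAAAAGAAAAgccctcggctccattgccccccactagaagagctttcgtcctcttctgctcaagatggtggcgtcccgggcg
Acadm: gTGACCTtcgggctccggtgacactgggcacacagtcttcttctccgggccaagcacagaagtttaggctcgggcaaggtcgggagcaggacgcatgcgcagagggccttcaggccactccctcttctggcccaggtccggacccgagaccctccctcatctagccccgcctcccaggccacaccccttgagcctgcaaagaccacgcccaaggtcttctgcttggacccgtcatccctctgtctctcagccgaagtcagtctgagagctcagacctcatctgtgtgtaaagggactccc
Fabp3: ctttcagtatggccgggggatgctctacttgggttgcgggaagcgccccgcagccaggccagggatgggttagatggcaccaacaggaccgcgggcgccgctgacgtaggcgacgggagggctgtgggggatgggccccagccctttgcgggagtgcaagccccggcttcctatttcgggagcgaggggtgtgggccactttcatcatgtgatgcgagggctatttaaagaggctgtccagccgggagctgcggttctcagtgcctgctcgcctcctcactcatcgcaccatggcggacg

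The 8 windows were searched for 6 motifs on both strands, as were all 32851 windows of the RefSeq promoter table. The hexamer AGGTCA stood in the windows of Cd36, Acadm and Acadvl, 3 of 8, against 16.3% of all windows. The box CCAAT stood in the window of Cd36, 1 of 8, against 37.4%. The E-box CACGTG, the core sequence bound by BMAL1 with CLOCK, was in none of the 8 and in 7.15% of all windows. The D-box TTATGNAA (3.38% of all windows), the estrogen-related receptor element TCAAGGTCA (0.423%), which contains the hexamer, and the hexamer repeated in the same direction after 1 free base (0.0396%) were in none of the 8 either. A missing match says only that these letters were not in these 300 bases.

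Total estimated counts lay between 10610333 and 19153527 per library. Knockout trained libraries 1 and 4, and libraries 3 and 5, were near-identical beyond what other libraries of a group showed and were counted as 1 sample each, so the knockout trained group has n = 3 and 18 samples were compared. Vehicle trained library 2 stood apart, with 3739 genes over 2-fold away from its group mean against 33 to 525 genes in the other 17 samples. The main results that rest on it are given with and without it. The targeted gene Arntl (Bmal1, ENSMUSG00000055116) went against the labels, at 6.73 ± 0.738 CPM (SD, n = 5) in vehicle sedentary and 12.6 ± 3.04 CPM (SD, n = 5) in knockout sedentary muscle (two-sided p = 0.00794 by an exact permutation test, the lowest value that 5 against 5 can give). It was 11.4 ± 3.82 CPM (SD, n = 3) in knockout trained muscle, where the vehicle trained samples other than library 2, at 143.7 CPM, did not exceed 6.98 CPM. Counts per gene also take reads from outside a deleted exon, so they do not check the deletion itself, and groups are named here by their labels only. The labels do not say that libraries of a group came from separate animals, so p-values measure the spread between these samples, which may in part be technical.

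Per kilobase of principal transcript, the members spanned a wide range of abundance in vehicle sedentary muscle (values in CPM per kb, mean ± SD, n = 5). Fabp3 was the most abundant at 454 ± 51.5 and Lpl was next at 217 ± 16.6, above every mitochondrial enzyme among the members. The level of Lpl per kilobase, and so its place, depends on the length used. Its exons together cover 10478 bases, against 4115 in the principal transcript. Acadm followed at 147 ± 6.81. Acadvl and Acadl were close to each other at 118 and 115, and Cd36 and Cpt1b at 96.6 and 95.9, and neither pair differed beyond its spread. The subunits of the trifunctional protein were also alike, at 70.9 for Hadhb and 67.3 for Hadha. Cpt2 was the least abundant at 25.1 ± 3.74. The places of Hadhb, Hadha and Acadm, the likeness of the subunits and the last place of Cpt2 also depend on the length used. Exons together cover 6595 bases for Hadhb, 8730 for Hadha and 3913 for Acadm, against 2048, 4017 and 2047 in the principal transcripts. Cpt1b shares 2744 exon bases with a same-strand transcript (Gm44502) in the GENCODE M21 annotation and Acadvl shares 1151 with the antisense gene Dvl2. Fabp3 shares 161 of its 823 exon bases with antisense genes (Gm10570 and Zcchc17), and Hadha shares 75 with the antisense gene Garem2. Strand cannot separate Cpt1b from Gm44502 in their shared bases, and for Acadvl, Fabp3 and Hadha it is not stated whether counting used strand. The levels of these 4 members are therefore uncertain.

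**Figure D1:**
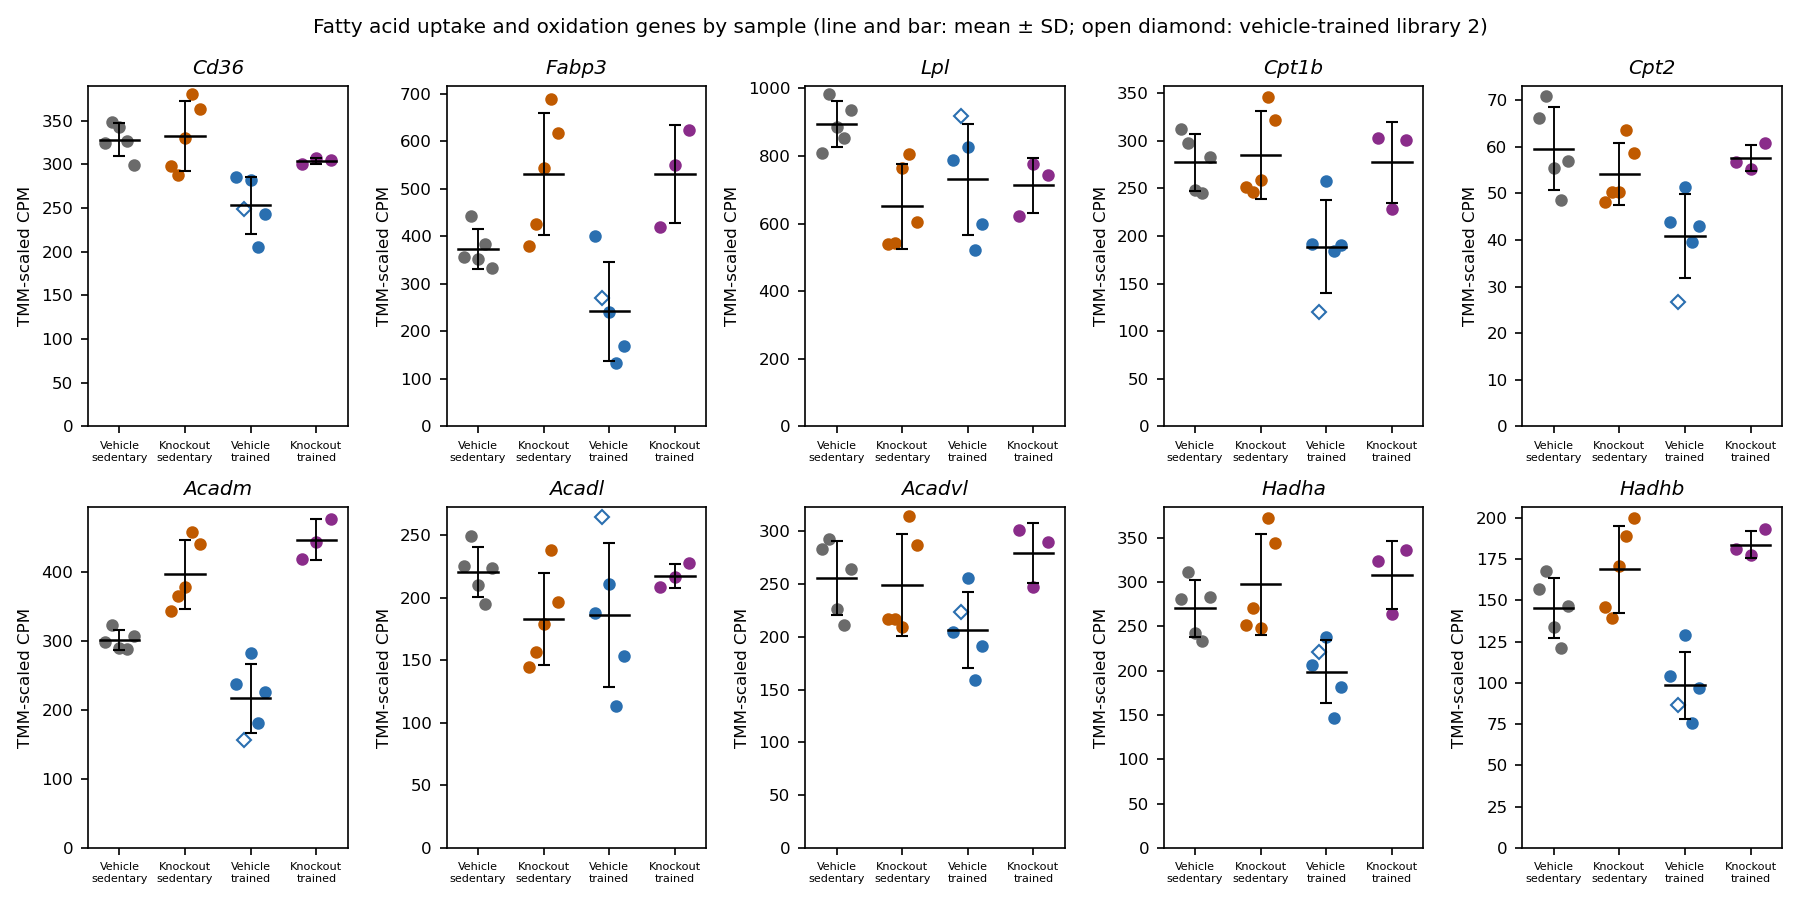
TMM-scaled CPM of each member (vertical axis, from 0) in the 4 groups (horizontal axis), 1 point per sample, with the mean and SD of each group. The 3 knockout trained samples of Acadm, Hadhb, Hadha, Fabp3, Cpt2 and Cd36 lie above all 5 vehicle trained samples of that gene, and vehicle trained library 2 is drawn as an open diamond.

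The comparison of trained samples labelled knockout with trained vehicle samples asks what the loss of muscle BMAL1 changes after training. Acadm (ENSMUSG00000062908), the medium-chain acyl-CoA dehydrogenase, was 2.06-fold higher in the samples labelled knockout, and the fatty acid carrier Fabp3 (ENSMUSG00000028773) was 2.19-fold higher. The trifunctional protein genes Hadhb (ENSMUSG00000059447) and Hadha (ENSMUSG00000025745) were 1.87-fold and 1.55-fold higher. These 4 of 10 members passed the test and all 4 were higher, where 3.29% of all tested genes were called in either direction and 1.99% were called higher (quasi-likelihood test of edgeR, adjusted over all tested genes by the method of Benjamini and Hochberg, threshold 0.05). The other 6 did not pass. The median log2 change over the 10 members was 0.52, against -0.03 over all tested genes, and 9 of 10 members had a change above 0, against 46.8% of all genes.

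Among the uptake genes, Fabp3 measured 400.1, 270.3, 240.3, 133 and 169 CPM in vehicle trained samples 1 to 5, and 419, 549.7 and 624 CPM in the 3 knockout trained samples. The groups did not overlap, although vehicle trained sample 1 came close to the lowest knockout trained sample. The log2 difference was 1.13 (SE 0.268, edgeR adjusted p = 0.0250). Cd36 measured 285, 249, 282, 205 and 243 CPM against 301, 307 and 304.5 CPM. Its groups did not overlap either, but the difference of 0.27 (SE 0.121) did not pass the edgeR test (adjusted p = 0.269). Lpl, made in the fibre and secreted to the capillary wall, was at 731 ± 164 CPM (SD, n = 5) in vehicle and 714 ± 80.9 CPM (SD, n = 3) in knockout trained muscle, a log2 difference of -0.03 with a 95% interval from -0.41 to 0.34.

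For the carnitine transferases, Cpt1b measured 192, 120.0, 258, 184 and 190.2 CPM in vehicle trained samples 1 to 5 and 303, 228 and 301 CPM in the knockout trained samples. Vehicle trained sample 3 lay above 1 knockout trained sample, and library 2 was the lowest of all samples. Cpt2 measured 43.9, 26.7, 51.4, 39.6 and 43.0 CPM against 56.8, 55.3 and 60.8 CPM, with no overlap. Neither transferase passed the edgeR test, at log2 differences of 0.55 (SE 0.187, adjusted p = 0.125) for Cpt1b and 0.49 (SE 0.167, adjusted p = 0.127) for Cpt2.

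The 3 acyl-CoA dehydrogenases differed in how far apart the trained groups lay. Acadm measured 237, 156, 282, 181 and 226 CPM in vehicle trained samples 1 to 5 and 418, 443 and 477 CPM in the knockout trained samples, with a wide gap between the groups. Its log2 difference of 1.04 (SE 0.152, edgeR adjusted p = 0.000806) had the smallest p of the members. Acadvl measured 205, 223, 256, 159 and 191 CPM against 301, 247 and 290.3 CPM, so vehicle trained sample 3 overlapped the lowest knockout trained sample, and the difference of 0.43 (SE 0.168) did not pass (edgeR adjusted p = 0.185). Acadl, at 186 ± 57.4 CPM (SD, n = 5) and 218 ± 9.75 CPM (SD, n = 3), had overlapping groups and a difference of 0.23 (SE 0.205, edgeR adjusted p = 0.605).

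Both subunits of the trifunctional protein were higher. Hadhb measured 104, 86.4, 129, 76.0 and 97.0 CPM in vehicle trained samples 1 to 5 and 181, 177 and 193 CPM in the knockout trained samples. Hadha measured 206, 221, 238, 146 and 182 CPM against 324, 264 and 336 CPM. Neither gene's groups overlapped, and the gap was wider for Hadhb. The log2 differences were 0.90 (SE 0.159, edgeR adjusted p = 0.00325) for Hadhb and 0.63 (SE 0.168, edgeR adjusted p = 0.0462) for Hadha.

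In all, the trained groups did not overlap for 6 of 10 members, each higher in the samples labelled knockout, against 5.08% of all tested genes that were higher without overlap. Without vehicle trained library 2 the 4 called members were the same, with Acadm at 0.95 (edgeR adjusted p = 8.48e-05), Hadhb at 0.86 (0.00145), Fabp3 at 1.18 (0.0110) and Hadha at 0.68 (0.0148), where 8.66% of all genes were called in either direction and 5.01% were called higher. The calls depended on which groups entered the fit. With only the trained groups in the fit, 0 of 10 members and 20 of all genes passed, and the adjusted p was 0.136 for Acadm and 0.156 for Hadhb. With library 2 also left out of that fit, 2 of 10 members, Acadm and Hadhb, and 378 of all 14359 genes passed. In the fit of all groups with 1 sample left out in turn, Acadm and Hadhb passed in 18 of 18 fits. Fabp3 missed the threshold in 3, without vehicle trained sample 5, knockout trained sample 2 or knockout trained libraries 3 and 5, and Hadha, already near it, in 12.

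**Figure D2:**
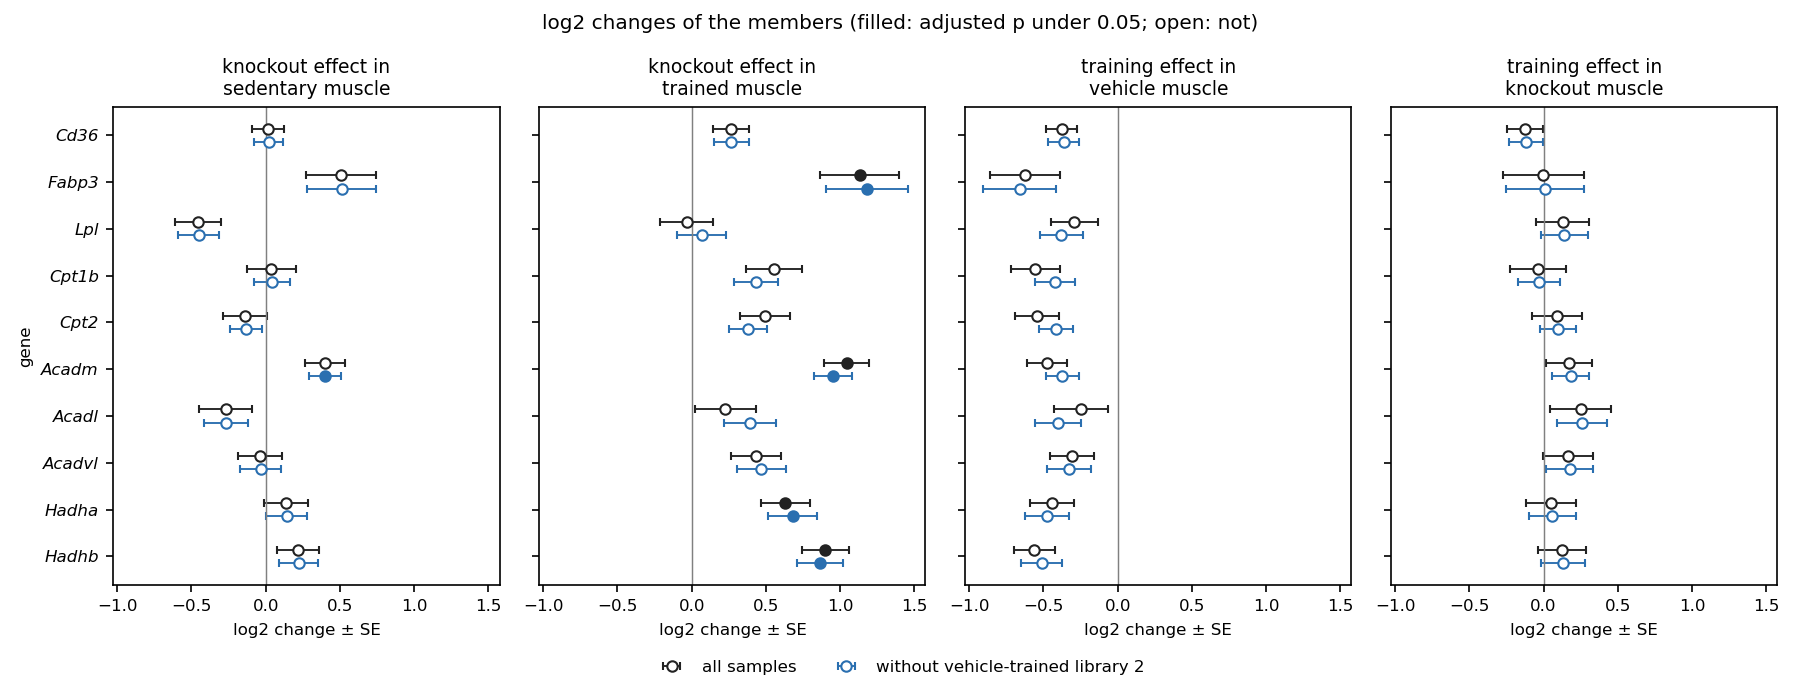
Fitted log2 change (horizontal axis) with its standard error for each member (vertical axis) in the 4 pairwise contrasts, one panel each. Each member is drawn from all samples (black) and without vehicle trained library 2 (blue). Filled points passed an adjusted p under 0.05. These were Acadm, Hadhb, Fabp3 and Hadha in the trained knockout panel, with and without library 2. In the sedentary knockout panel Acadm is filled without library 2 only. All points of the panel for training in vehicle muscle lie below 0.

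In sedentary muscle the same comparison gave no call among the members. The edgeR test called 0 of 10, against 2.33% of all tested genes, 3 members had an unadjusted p under 0.05 (Acadm, Lpl and Fabp3, against 9.81% of all genes), and DESeq2 and limma called 0 as well. The median log2 change was 0.03, with 6 of 10 above 0 (52.3% of all genes). Acadm was higher and Lpl lower with no overlap between the groups, and the remaining 8 members overlapped. Groups higher without overlap made up 3.93% of all genes and groups lower without overlap 4.78%.

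Acadm measured 298, 322, 289.5, 288 and 306 CPM in vehicle sedentary samples 1 to 5 and 342, 364, 377, 457 and 439.6 CPM in knockout sedentary samples 1 to 5. All 5 samples labelled knockout lay above all vehicle samples, for a log2 difference of 0.40 (SE 0.135, edgeR adjusted p = 0.193). Lpl measured 809.6, 984, 885, 854 and 936 CPM against 541, 542, 764, 807 and 606 CPM. It was the only member whose sedentary samples labelled knockout all lay below the vehicle samples, sample 4 only narrowly, with a difference of -0.46 (SE 0.156, edgeR adjusted p = 0.197). Fabp3 measured 357, 443, 351.5, 384 and 334 CPM against 380.2, 426, 543, 688 and 618 CPM. Knockout sedentary samples 1 and 2 lay within the vehicle range and samples 3 to 5 above it, for a difference of 0.51 (SE 0.237, edgeR adjusted p = 0.492).

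The other 7 members lay between -0.27 for Acadl and 0.22 for Hadhb, with overlapping groups. Knockout sedentary samples 4 and 5 were high across the pathway, with 7 and 6 members above every vehicle sedentary sample, while samples 1 and 2 had 4 and 3 members below. Without vehicle trained library 2, Acadm passed in sedentary muscle too (0.40, SE 0.106, edgeR adjusted p = 0.0244), where 6.98% of all genes were called in either direction and 3.14% were called higher. With only the sedentary groups in the fit, 3 of 10 members, Acadm, Fabp3 and Lpl, passed, as did 1177 of all 14359 genes, against 334 in the fit of all groups.

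Training was compared within the vehicle samples and within the samples labelled knockout. In vehicle muscle all 10 members had a log2 change below 0, where 53.7% of all genes were above 0, from -0.63 for Fabp3 to -0.25 for Acadl, with a median of -0.46 against 0.03 over all genes. None of the 10 passed the edgeR test and none passed under DESeq2 or limma. No gene of the table passed in this comparison (0% called), and 7 members had an unadjusted p under 0.05, against 15.2% of all genes. The smallest adjusted p of a member was 0.272. Cd36 and Acadm were lower without overlap, 2 of 10, against 1.08% of all genes. Without library 2 the changes ranged from -0.66 to -0.33, the median was -0.41 and the smallest adjusted p was 0.343. All 10 members then had an unadjusted p under 0.05, but no share over all genes is at hand for that count. Beside these values, 7 of 7 macrophage markers (median 1.08), 5 of 6 adipocyte markers (0.99), 5 of 5 blood markers (0.55) and 5 of 5 fibroblast markers (0.43) were above 0 in this comparison, and 0 of 7 slow-fibre genes were (-0.77). The median adipocyte sum was nonetheless 57.6 CPM in vehicle trained and 104 CPM in vehicle sedentary samples. For training in muscle labelled knockout, 6 of 6 adipocyte (median 1.35) and 5 of 5 blood markers (0.98) were above 0. In that comparison 4 of 7 macrophage (0.04), 0 of 5 fibroblast (-0.24) and 6 of 7 slow-fibre genes (0.64) were above 0. None of these lists held a called gene in either comparison, and their part in the members' differences was not tested.

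Cd36, the membrane transporter, measured 324, 348, 343, 327 and 299 CPM in vehicle sedentary samples 1 to 5, all above the highest vehicle trained sample at 285 CPM, for a log2 difference of -0.38 (SE 0.106). Acadm differed by -0.48 (SE 0.135), its highest vehicle trained sample at 282 CPM lying just under the lowest vehicle sedentary sample at 288 CPM. Hadhb at -0.56 (SE 0.141), Cpt1b at -0.56 (SE 0.165) and Cpt2 at -0.54 (SE 0.147) had larger differences with overlapping groups. Vehicle trained sample 3 was the nearest to the sedentary level for 7 members (Cpt1b, Cpt2, Acadm, Acadl, Acadvl, Hadha and Hadhb).

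In muscle labelled knockout the training changes lay around 0, from -0.13 for Cd36 to 0.25 for Acadl, with a median of 0.11. The edgeR test called 0 of 10 (0% of all genes), 0 had an unadjusted p under 0.05 (9.71% of all genes), and DESeq2 and limma called 0. For 0 of 10 members did the knockout trained and knockout sedentary groups separate, where 4.45% of all genes were higher and 4.24% lower without overlap. Acadm stood at 396 ± 49.6 CPM (SD, n = 5) before and 446 ± 29.2 CPM (SD, n = 3) after training, and Fabp3 at 531 ± 129 and 531 ± 104 CPM.

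The interaction is the difference between the training changes in samples labelled knockout and in vehicle samples. It equals the difference between the knockout changes in trained and sedentary muscle. It was above 0 for all 10 members, from 0.25 for Cd36 to 0.68 for Hadhb, with a median of 0.51, where 47.2% of all genes were above 0. None passed the edgeR test (0% of all genes), with a smallest adjusted p of 0.604 for Acadm and Hadhb. An unadjusted p under 0.05 was reached by 5 members, Acadm, Hadhb, Cpt2, Hadha and Acadvl, against 7.49% of all genes, and DESeq2 and limma called 0 members. Without library 2 the interaction ran from 0.25 to 0.67 with a median of 0.53, and again 0 members passed (smallest edgeR adjusted p = 0.262). An unadjusted p under 0.05 was then reached by 7 members, with no share over all genes at hand for that count. A larger knockout change after training than before was therefore not shown for any member. These contrasts share samples: trained vehicle samples enter both the trained knockout contrast and the contrast of training in vehicle muscle, and the signs of the members in those 2 contrasts are not independent.

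Seen by sample, the vehicle trained group was low and uneven. The mean log2 shift of the 10 members from the vehicle sedentary mean was -0.83 in vehicle trained sample 4, -0.56 in sample 5, -0.50 in library 2, -0.30 in sample 1 and -0.17 in sample 3. In samples 4 and 5 all 10 members lay below every vehicle sedentary sample. The 3 knockout trained samples stood at 0.08, 0.07 and 0.22, a mean near the vehicle sedentary level that joined opposite shifts. In them 4, 3 and 4 members lay above every vehicle sedentary sample, and 1, 2 and 1 below. Library 2 had its own pattern, low for Cpt1b, Cpt2 and Acadm and high for Acadl, which at 265 CPM exceeded every other sample.

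**Figure D3:**
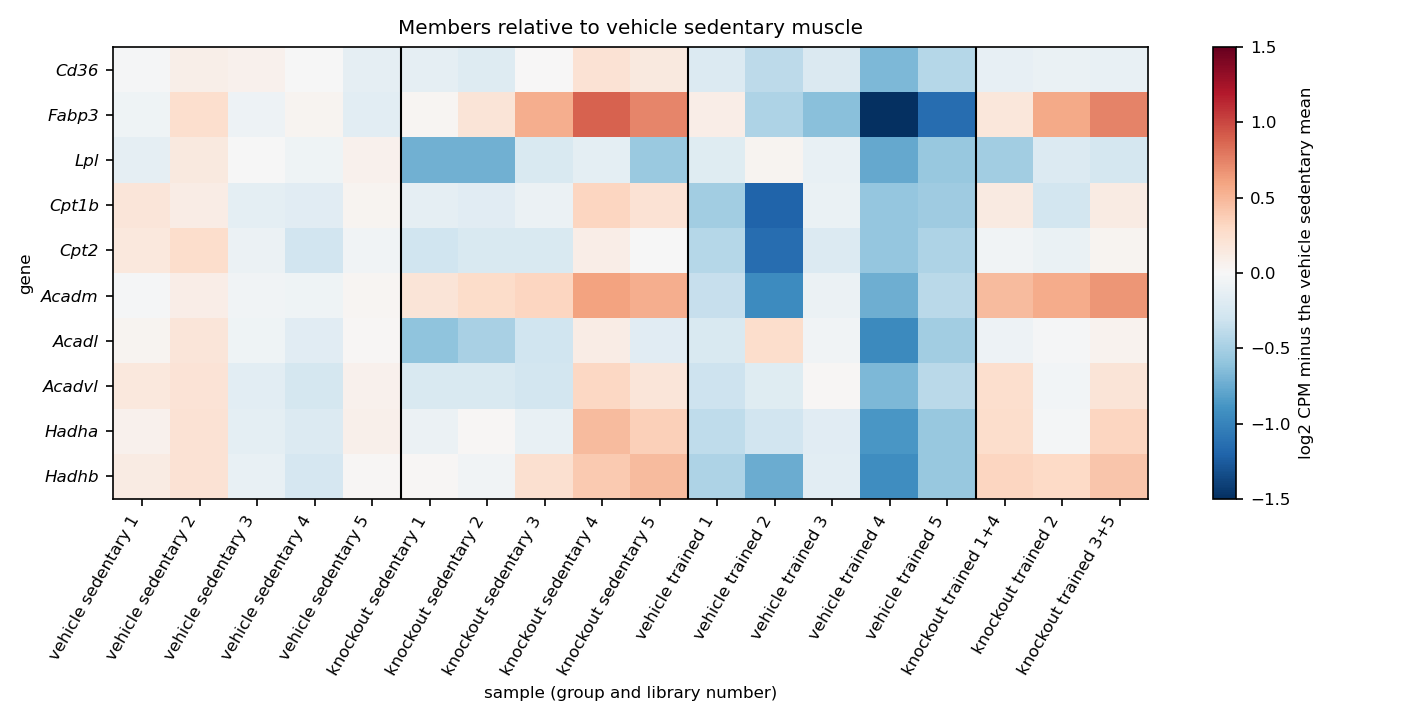
Color gives log2 CPM minus the vehicle sedentary mean for each member (rows) in each sample (columns), from blue (lower) to red (higher). The columns of vehicle trained samples 4 and 5 are blue for all 10 members, and the row of Acadm is red in all 5 knockout sedentary and all 3 knockout trained samples.

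Most members varied together across samples, and Lpl followed some of them only. Over the 17 samples without library 2, the 45 pairs of members had a median Pearson r of 0.77, and 39 pairs exceeded 0.5. The closest pairs were Acadm with Hadhb (r = 0.95) and Hadha with Hadhb (r = 0.94), the genes that lie head to head. Lpl had the lowest r with the mean profile of the members (0.54), and its r ran from 0.09 with Acadm to 0.81 with Acadl, while the lowest r among the other 9 was 0.56. The genes outside the members nearest to their mean profile were Ldhb-ps (r = 0.97) and Ldhb (r = 0.96). Ldhb encodes the heart-type lactate dehydrogenase subunit and Ldhb-ps is its pseudogene copy, and their reads cannot be told apart with certainty. Etfdh (r = 0.95), which passes electrons of β-oxidation to ubiquinone, Pcp4l1 (r = 0.95) and Decr1 (r = 0.94), which handles unsaturated chains, came next. These r values are descriptions over samples that share libraries, depth and groups.

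Other genes of fatty acid use were read from lists by role, with the same test. Over all tested genes, 3.29% were called in trained and 2.33% in sedentary muscle, and 8.66% and 6.98% without library 2. In trained muscle 1.99% of all genes were called higher (5.01% without library 2) and 46.8% were above 0. These shares stand beside the counts of every role list below. In trained muscle, 4 of 15 other mitochondrial β-oxidation genes were called and all 4 were higher in the samples labelled knockout, with a list median of 0.44 and 14 of 15 above 0. They were Etfdh (0.71, SE 0.153, edgeR adjusted p = 0.0153) and Etfa (0.60, adjusted p = 0.00849), which carry electrons from the acyl-CoA dehydrogenases, Eci1 (0.68, adjusted p = 0.00700), an enoyl-CoA isomerase, and Acads (0.49, adjusted p = 0.0324), the short-chain dehydrogenase. Etfdh rose from 92.8 ± 17.8 CPM (SD, n = 5) to 151 ± 6.69 CPM (SD, n = 3). Without library 2, 6 of the 15 were called, all higher, while calls over all genes also became more frequent. In sedentary muscle none of the 15 was called, and the list median was -0.09.

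Of 11 genes for uptake and lipase handling, 1 was called higher in trained muscle labelled knockout and 1 lower. The fatty acid transport protein Slc27a1 rose by 0.87 (SE 0.194, edgeR adjusted p = 0.0183), from 61.2 ± 14.9 CPM (SD, n = 5) to 112 ± 11.6 CPM (SD, n = 3). The lipoprotein receptor Vldlr fell by 0.86 (SE 0.203, adjusted p = 0.0254). Without library 2, 2 of these 11 genes were called higher and 1 lower. Of 9 activating enzymes and thioesterases, 3 were higher and 1 lower. The long-chain acyl-CoA synthetase Acsl1 was higher by 0.77 (adjusted p = 0.0195) and its relative Acsl3 fell by 0.83 (adjusted p = 0.0261), and the thioesterases Acot7 (0.83, adjusted p = 0.00283) and Acot2 (0.82, adjusted p = 0.0253) were higher. The median of this list was -0.26, opposite in sign to most of its calls, and 0.40 without library 2.

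Of 7 other genes around the carnitine shuttle, 0 were called in trained muscle, where Mlycd, which breaks down the CPT1 inhibitor malonyl-CoA, was at 0.55 (edgeR adjusted p = 0.0568) and Acacb, which makes it, at -0.40 (adjusted p = 0.280). Without library 2, Mlycd was called higher at 0.71 (edgeR adjusted p = 0.000524). In sedentary muscle 1 of the 7 was called. The carnitine-acylcarnitine carrier Slc25a20, which works between the 2 transferases, was lower by a narrow margin at -0.40 (SE 0.105, edgeR adjusted p = 0.0496), from 86.4 ± 5.34 CPM to 65.3 ± 8.30 CPM (SD, n = 5 in each group). Without library 2, 2 of the 7 were called in sedentary muscle, each lower (smallest edgeR adjusted p = 0.0127). Of 10 peroxisomal genes tested, 0 were called in either comparison, and the smallest p belonged in both to Crot, the peroxisomal carnitine octanoyltransferase, at 0.49 in sedentary and 0.53 in trained muscle (edgeR adjusted p = 0.281 and 0.199). Without library 2, Crot was called higher in sedentary muscle labelled knockout, at 0.50 (edgeR adjusted p = 0.00178). An 11th peroxisomal gene, Acaa1b, was under the filter on low counts.

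Of 10 regulators and known targets of the pathway, 0 were called in either comparison by edgeR. In trained muscle Rxrg, a partner of the PPAR receptors, was at 0.73 (SE 0.232, adjusted p = 0.101) and Rxra at -0.34 (SE 0.117, adjusted p = 0.138). In sedentary muscle Pdk4, a kinase that spares glucose when fat is burned, was at 0.96 (SE 0.424, adjusted p = 0.434). Library 2 weighed on this list: the coactivator Ppargc1a measured 604 CPM in it and 64.6 ± 13.7 CPM (SD, n = 4) in the other vehicle trained samples. Without library 2, Rxrg (0.54, edgeR adjusted p = 0.00706) and Esrra (0.40, adjusted p = 0.0246) were called higher in trained muscle labelled knockout, and Ppargc1a was called lower in sedentary muscle labelled knockout, at -0.54 (adjusted p = 0.0148).

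**Figure D4:**
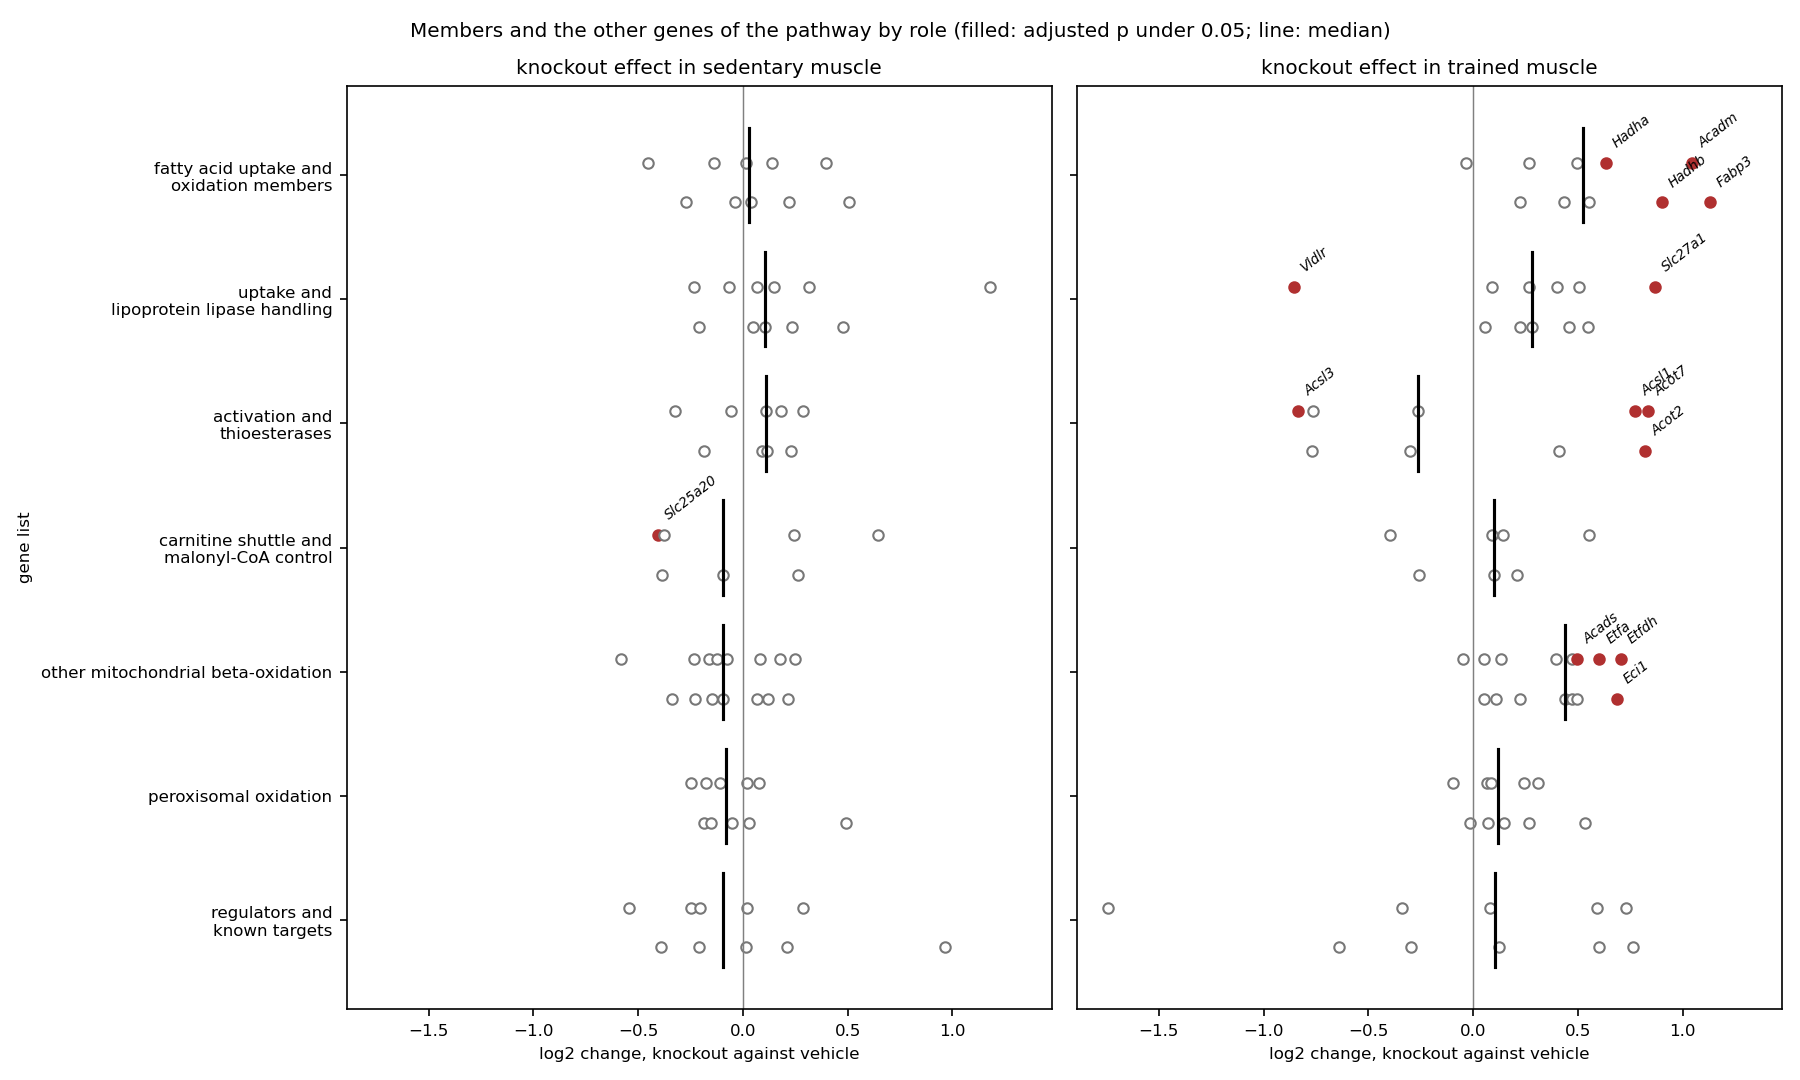
Log2 change between samples labelled knockout and vehicle samples (horizontal axis) for each tested gene of the members and of the 6 role lists (vertical axis), in sedentary (left) and trained (right) muscle, with a line at each list's median. Filled and named points passed an adjusted p under 0.05, with Slc25a20 alone in the sedentary panel and 14 genes in the trained panel.

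Marker lists of fibre types and other cells were read beside these results. Genes of muscle fibre identity summed to between 35452 and 60238 CPM in every sample, so the labelled tissue held its defining genes. In the trained comparison the 7 slow-fibre genes were all above 0 with a median log2 change of 0.87 and 0 calls, and their summed level ran from 398 to 1356 CPM in vehicle trained and from 962 to 1429 CPM in knockout trained samples. Vehicle trained samples 4 and 5, the lowest for the members, also had the lowest slow-fibre sums, at 398 and 457 CPM. Vehicle trained sample 1 had the highest slow-fibre sum of its group, at 1356 CPM, with 9 of 10 members below every vehicle sedentary sample, and sample 3, the least shifted, stood at 805 CPM. Of 8 genes of mitochondrial content, 7 were above 0 with a median of 0.42 and 0 calls, with sums from 2725 to 4194 CPM against 4007 to 4723 CPM. The sum of 2725 CPM was that of library 2, and the other vehicle trained samples started at 3323 CPM. Without library 2, 1 of the 7 slow-fibre genes was called higher in this comparison (list median 0.82, edgeR adjusted p = 0.0435). Of the 8 mitochondrial content genes, 2 were then called higher (list median 0.32, smallest edgeR adjusted p = 0.0193), where 5.01% of all genes were. In the sedentary comparison 1 of 7 slow-fibre genes was above 0 (median -0.30), and of the mitochondrial content genes 4 of 8 were above 0 and the outer membrane channel Vdac1 was called lower (-0.69, edgeR adjusted p = 0.00403).

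The 7 macrophage genes were all below 0 in the trained comparison, with a median of -0.76 and 0 calls, and sums from 154 to 412 CPM in vehicle and from 53.3 to 341 CPM in knockout trained samples. The sum of 412 CPM was that of library 2, and the other vehicle trained samples reached at most 360 CPM. Of 5 fibroblast genes 1 was above 0, with sums from 1676 to 2720 CPM against 865 to 2045 CPM. The endothelial list (260 to 320 CPM against 280 to 369 CPM) and the adipocyte list (47.3 to 599 CPM against 126 to 402 CPM), whose cells also use Lpl and Cd36, had overlapping sums. Among all these markers only the adipocyte gene Lep was at 0 in any sample. The oxygen store Mb, on the list of fibre identity, was called higher at 0.96 (edgeR adjusted p = 0.0438). In bulk tissue, fewer cells of a type and less RNA per cell cannot be told apart, and the part of these lists in the members' differences was not tested.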

How the data were processed

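RNA from mouse hindlimb muscle was sequenced in 20 libraries in 4 groups of 5, after Trizol and Qiagen kit extraction and an Illumina library kit, per the labels. The submitters' processing notes name Partek, STAR 2.7.8a, DESeq2 and the builds mm10 and GRCm39, without roles. The annotation and strandedness are not given in the sources used here. Per gene the deposited table holds estimated counts, although its name gives another unit: columns sum to 10610333 to 19153527, and 72.6% of values are whole. They were rounded.

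Sampling noise was checked in all 190 library pairs. In 2 pairs, both knockout trained, noise at 1000 to 10000 summed counts was under 1.5 times that at 10 to 100. Each pair was summed, giving 18 samples. edgeR 4.0.16 (R 4.3.3) fitted 4 group means by quasi-likelihood with TMM scaling. P-values were two-sided and Benjamini-Hochberg adjusted over 14359 genes within each contrast, with a threshold of 0.05. CPM are TMM-scaled, and the SE is the change divided by the root of its F statistic. The test was also run on simulated data.

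The members and lists were chosen with earlier results of these data known. All members were named. Of each role list, at most 4 called genes with the largest changes were named per contrast, or 2 with the smallest p where none was called; genes called only without library 2 and the marker genes Mb, Lep and Vdac1 were named after their values were seen. Gene models came from GENCODE M21 and promoter windows from RefSeq (GRCm38.p6). Alternatives were RLE scaling, DESeq2 1.42.0, limma 3.58.1 on log2(CPM + 1) or log2(CPM + 0.1), no filter, only the groups compared, all libraries separate, a replicate block, and leaving out each sample. Leaving out vehicle trained library 2 from the fit of only the groups compared was chosen after seeing the data.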

Additional observations from a re-analysis of the deposited data

How the results depend on the processing

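The median change of the members kept its direction under every alternative in the trained knockout contrast (0.44 to 0.64), in both training contrasts and in the interaction, and lay between -0.04 and 0.08 in the sedentary knockout contrast. The number of members called in trained muscle was 0 with only the groups compared in the fit, 2 when library 2 was also left out, 7 with all libraries separate, and 2 to 5 when 1 sample was left out (2 without vehicle trained sample 5, knockout trained sample 2 or knockout trained libraries 3 and 5, which kept Acadm and Hadhb). In sedentary muscle it was 3 with only the groups compared, with or without library 2, and 0 to 1 when 1 sample was left out. Hadha also missed the threshold with RLE scaling (adjusted p = 0.0523). The lowest value of any member in any sample was 26.7 CPM (Cpt2), and library totals ran from 10610333 to 19153527, with the lowest in the knockout trained group; the part of depth was not tested.

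Over all genes, DESeq2 called 537 in the sedentary and 907 in the trained knockout contrast, 173 for training in muscle labelled knockout and 29 for the interaction. With only the groups compared, 1177 (also 1177 without library 2) and 20 were called in the knockout contrasts. With all libraries separate, 1225 were called in the trained knockout contrast and 49 for training in muscle labelled knockout. Leaving out 1 sample gave 251 to 1002 calls in the sedentary and 177 to 1244 in the trained knockout contrast (299 without knockout trained sample 2), 0 to 1 for training in vehicle muscle and 0 to 397 for training in muscle labelled knockout (121 without library 2). The library numbers gave no sign of pairing samples, although a weak pairing could go unseen by this check. Same-numbered libraries of different groups had a median correlation of 0.02, against -0.01 for different numbers, and 4 of 20 matched best with their own number. With the number as a replicate block on all libraries separate, 980 genes and 6 members were called in trained muscle.

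Signs turned only for uncalled changes near 0. When 1 sample was left out, the sedentary knockout change ranged from -0.136 to 0.0217 for Acadvl, from -0.0414 to 0.0866 for Cpt1b and from -0.0372 to 0.0649 for Cd36. The trained change of Lpl ran from -0.122, without vehicle trained sample 4, to 0.0722, without knockout trained libraries 1 and 4, with 0.0682 without library 2 and 0.0592 without library 2 and with only the groups compared. For training in muscle labelled knockout, Fabp3 was at 0.0075 with RLE scaling or DESeq2, 0.0147 and 0.0148 with limma (pseudocounts 1 and 0.1), 0.0114 with no filter and 0.0012 with all libraries separate. It ran from -0.0904 to 0.110 when a knockout sedentary sample was left out, and was 0.160 without knockout trained libraries 1 and 4. Cpt1b was at 0.0207 with all libraries separate, 0.0161 with the replicate block, and ran from -0.0986 to 0.0934 over all samples left out (-0.0750 to 0.0405 over knockout sedentary samples). Hadha ran from -0.0143 to 0.159.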
